A study of Mus musculus with 13 samples.

Results

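The 4 Hox clusters of the mouse genome were examined in the peak lists of 2 repressive histone marks, H3K27me3 and H3K9me3, in embryonic stem cells that carry an inducible knockout of Setdb1. Members were the peaks that overlap, by at least 1 bp, 4 fixed windows of build mm9, together 920 kb long. The windows were chromosome 6 from 52.08 to 52.30 Mb for Hoxa, chromosome 11 from 96.00 to 96.28 Mb for Hoxb, chromosome 15 from 102.70 to 102.92 Mb for Hoxc and chromosome 2 from 74.45 to 74.65 Mb for Hoxd. They stand for 38 member genes, 10 in Hoxa, 10 in Hoxb, 9 in Hoxc and 9 in Hoxd, of the 39 Hox genes that the RefSeq gene table lists. Of the 185431 peaks in the 8 lists, 221 lay in the windows.

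All groups share the J1 embryonic stem cell line with the inducible Setdb1 knockout, kept feeder-free in serum with LIF. Untreated libraries are labelled noTam, with DMSO named as the solvent control. Treated libraries come from cells given 2.5 µM tamoxifen to induce the ablation of Setdb1. The lists were H3K9me3 in untreated cells (n = 4), H3K27me3 in untreated cells (n = 2) and H3K27me3 with tamoxifen (n = 2). The antibody entry of H3K9me3 replicate 4 reads none, and its title puts it in its group. By the submitters' processing notes, the replicate 1 libraries go with MACS2 2.0.10 and are called the first batch here, and the remaining libraries go with MACS2 2.1.0 and are called the second batch. The time in tamoxifen, the number of clones, the level of Setdb1 and H3K9me3 after tamoxifen are not known from the files used here. No label states separate cultures, so a p-value measures only the spread between these libraries, which may be technical.

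Hox genes encode homeodomain transcription factors that give cells of the embryo their position along the head to tail axis. Within a cluster the genes stand in the order of their expression along that axis, with low paralogue numbers anterior and high numbers posterior. In embryonic stem cells the clusters are mostly silent and are a textbook target of Polycomb repressive complex 2, which methylates H3K27. Setdb1 methylates H3K9 and is known in these cells mainly for silencing endogenous retroviruses.

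In the order of the RefSeq table, which follows GRCm38.p6, the Hoxa window begins with Hoxa2 and Hoxa3, patterning genes of the hindbrain and pharyngeal region, runs through Hoxa4, Hoxa5, Hoxa6 and Hoxa7, and ends with Hoxa9, Hoxa10, Hoxa11 and Hoxa13, of which the last acts in the distal limb and the genital tubercle. The other 3 clusters lie with their posterior genes first. Hoxb begins with Hoxb13, followed by Hoxb9, Hoxb8, Hoxb7, Hoxb6, Hoxb5, Hoxb3, Hoxb4, Hoxb2 and Hoxb1, the last a hindbrain gene. Hoxc runs from Hoxc13, a gene of hair and nail formation, through Hoxc12, Hoxc11, Hoxc10, Hoxc9, Hoxc8, Hoxc6 and Hoxc5 to Hoxc4. Hoxd runs from Hoxd13, a digit patterning gene, through Hoxd12, Hoxd11, Hoxd10, Hoxd9, Hoxd8, Hoxd3 and Hoxd4 to Hoxd1. This order sorts genes by a single position each, which puts Hoxb3 before Hoxb4 and Hoxd3 before Hoxd4, out of the order of paralogue number. No annotation of mm9 was used, so peaks were not assigned to single genes. Only the end of a cluster that a peak is nearer to is named, by this order.

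Promoters are shown because CpG-rich promoters are known as places where Polycomb complexes bind. The 250 bases before the start of a gene were taken from RefSeq on GRCm38.p6, where 22 of the 38 members had an entry. Both ends of a cluster were in that table for Hoxa and Hoxd, and these 4 promoters follow 5′ to 3′ in the direction of the gene, with each CpG in capitals. They are chr6:52164832-52165081 and chr6:52260881-52261130 on the minus strand, and chr2:74667975-74668224 and chr2:74762730-74762979 on the plus strand. These positions belong to GRCm38.p6 and cannot be laid over the mm9 peaks.
Hoxa2: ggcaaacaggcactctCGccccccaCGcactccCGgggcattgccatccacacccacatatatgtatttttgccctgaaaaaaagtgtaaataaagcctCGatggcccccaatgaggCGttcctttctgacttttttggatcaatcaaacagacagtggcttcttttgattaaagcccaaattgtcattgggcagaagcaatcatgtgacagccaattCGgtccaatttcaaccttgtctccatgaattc
Hoxa13: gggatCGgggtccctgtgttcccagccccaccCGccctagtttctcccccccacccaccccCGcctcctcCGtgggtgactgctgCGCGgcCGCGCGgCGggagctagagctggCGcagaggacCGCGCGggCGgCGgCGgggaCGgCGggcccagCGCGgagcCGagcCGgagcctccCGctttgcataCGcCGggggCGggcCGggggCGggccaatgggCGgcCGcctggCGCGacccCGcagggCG
Hoxd13: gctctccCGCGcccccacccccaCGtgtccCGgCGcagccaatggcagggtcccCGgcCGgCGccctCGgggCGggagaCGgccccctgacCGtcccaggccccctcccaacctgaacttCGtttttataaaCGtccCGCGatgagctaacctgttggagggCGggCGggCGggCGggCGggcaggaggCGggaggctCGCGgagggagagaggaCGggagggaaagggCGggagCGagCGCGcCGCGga
Hoxd1: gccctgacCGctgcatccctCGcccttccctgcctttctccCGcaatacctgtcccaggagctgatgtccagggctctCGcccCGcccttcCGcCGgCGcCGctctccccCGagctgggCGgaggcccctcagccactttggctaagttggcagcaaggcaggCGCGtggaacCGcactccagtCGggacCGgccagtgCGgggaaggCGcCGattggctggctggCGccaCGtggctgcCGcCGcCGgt
The Hoxa2 promoter held 6 CpGs, that of Hoxa13 held 35, that of Hoxd13 held 31 and that of Hoxd1 held 24. Over the 24 promoters listed for the 22 genes the number ranged from 2 to 35 with a median of 12.5. Over all 32851 promoters of the table the median was 6. At least 10 CpGs were found in 15 of the 24 Hox promoters, which is 62.5%, and in 37.8% of all promoters. The letters searched were CG, which reads the same on both strands. The Hox entries thus spanned from CpG-poor, at 2 CpGs, to CpG-rich, as in Hoxa13. Where a gene had 2 entries, they held 20 and 7 or 20 and 2 CpGs, so a count belongs to an entry and not to a gene.

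In untreated cells H3K27me3 covered most of every Hox window, while H3K9me3 was nearly absent. Of the summed windows, H3K27me3 peaks covered 64.7% and 65.5% in the untreated libraries and 61.2% and 63.0% with tamoxifen, replicate 1 before replicate 2. The windows make up 0.0348% of the chromosome length spanned by the lists, yet 2.43% and 2.11% of all H3K27me3 bases of the untreated lists and 2.45% and 1.76% of those of the tamoxifen lists fell there. In the 50 kb on either side of each window the covered share was 4.20% to 7.22% in the 4 libraries. The mark thus dropped off next to the windows in every library. H3K27me3 lists cover 0.868% to 1.25% of the chromosome length spanned.

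**Figure D1:**
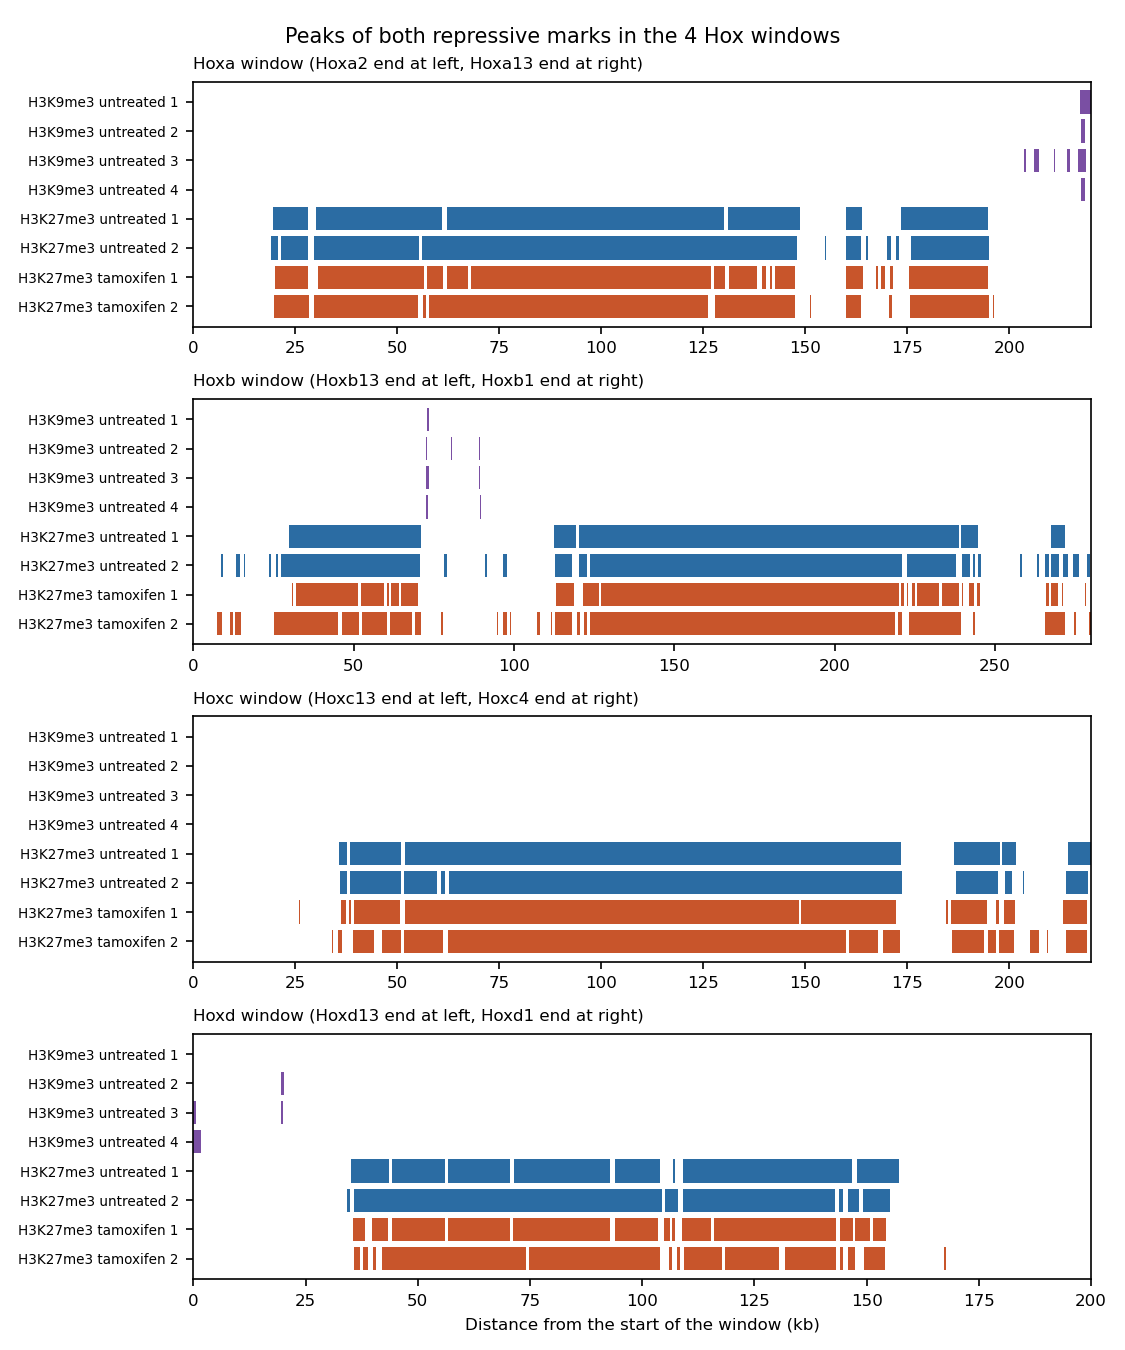
Peaks of the 8 lists in the 4 windows, with the distance from the start of the window in kb on the x axis and 1 row per library. Purple bars are H3K9me3 peaks and blue and orange bars H3K27me3 peaks without and with tamoxifen. H3K27me3 fills the middle of every window in all 4 libraries, and no H3K9me3 peak overlaps it.

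The 4 H3K27me3 lists merged into 53 regions in the windows, 16 of them with peaks from every library, 6 with peaks from 2 or 3 libraries and 31 with a peak from 1 library. Over the whole series 15.3% of merged regions were held by all 4. No region of the windows was held by both tamoxifen libraries and neither untreated one, where 2.18% of all merged regions were. None was held in the reverse way either. Of all bases in the windows with H3K27me3 in any list, 80.3% lay in all 4 lists, against 27.7% over the series. By this measure the Hox domains were shared between libraries to a larger extent than the series as a whole, with no test of the difference and no match for width.

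The Hoxa domain had 4 regions in common. The main one, from 52109488 to 52228602 on chromosome 6, spanned 119115 bp and was the widest of the window. It was covered over 97.7% and 98.8% in the untreated libraries and over 92.0% and 95.9% with tamoxifen. A region of 9289 bp lay before it at the Hoxa2 end, and regions of 4046 bp and 21533 bp after it. Both ends of the cluster thus carried separate islands of the mark. No library had a peak in the 4995 bp from 52235017 to 52240011, and the islands after the main region began beyond it, at 52240012 and 52253471. The 21533 bp island was a single peak in each of the 4 libraries.

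The Hoxb window held the widest of the 53 regions and also long bare intervals. Its main region, from 96119727 to 96245840 on chromosome 11, spanned 126114 bp and was covered over 98.2% and 94.8% in untreated cells and over 91.7% and 91.5% with tamoxifen. A second region of 45904 bp, from 96025110 to 96071013, lay at the Hoxb13 end. It was covered over 89.5% and 95.4% in untreated cells and over 76.7% and 91.7% with tamoxifen, so tamoxifen replicate 1 stood lowest. Between both regions only scattered peaks were found, none of them in all 4 libraries before 96112547, and stretches of 11838, 8296 and 6315 bp were free of the mark in every list. A region of 6933 bp stood just before the main region, and one of 7184 bp stood after it, beyond a bare stretch of 11169 bp. The window also held 15 of the 31 regions found in 1 library.

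The Hoxc window held 1 long region that was nearly filled in every library. The region from 102751578 to 102873574 on chromosome 15, 121997 bp wide, was covered over 99.6% and 98.1% in untreated cells and over 98.1% and 97.0% with tamoxifen. It was a single peak of 121453 bp in untreated replicate 1, and this was the widest H3K27me3 peak of that list. In each of the other 3 lists the widest peak also lay in this window, at 110831 bp in untreated replicate 2 and 96392 and 97391 bp with tamoxifen. A bare stretch of 10811 bp followed, from 102873575 to 102884385, before a region of 15919 bp towards Hoxc4. The last region ran past the end of the window to 102922068, so its coverage was cut there.

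The Hoxd domain was split in the middle. Regions of 69349 bp, from 74485081 to 74554429, and 48308 bp, from 74558879 to 74607186, lay side by side on chromosome 2 with one of 3703 bp between them. The first, at the Hoxd13 end, was covered over 94.5% and 99.1% in untreated cells and over 90.9% and 92.4% with tamoxifen. The second, towards Hoxd1, was covered over 97.2% and 89.7% in untreated cells and over 88.6% and 80.0% with tamoxifen. Coverage was lower with tamoxifen in both batches in these 2 regions. Of all 112 regions of 20 kb or wider held by all 4 libraries, 72.3% were less covered in this way. In untreated replicate 2 the first region was 1 peak of 68736 bp, whereas untreated replicate 1 split it into 5 peaks.

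The central comparison asked whether the Hox domains changed when Setdb1 ablation was induced. Coverage was lower with tamoxifen in all 4 clusters in both batches, by small amounts. Over the whole lists the covered share of the chromosome length spanned fell from 0.926% to 0.868% in the first batch. In the second batch it rose from 1.08% to 1.25%. Of all 112 regions of 20 kb or wider held by all 4 libraries, 72.3% were less covered with tamoxifen in both batches. Group means over the summed windows were 62.1% ± 1.26 with tamoxifen and 65.1% ± 0.515 without (SD, n = 2 each), a difference of -3.02 percentage points. The 2 tamoxifen libraries lay below the 2 untreated ones, and the two-sided exact permutation p was 0.333, which is as low as 2 libraries against 2 can reach. Within the first batch the difference was -3.55 points and within the second -2.50. Joining peaks that lie under 1 kb apart reduced it to -1.79, and joining under 2 kb, a setting added once the values were known, to -0.978, so part of the difference lay in short gaps.

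In the Hoxa window the untreated libraries covered 68.2% and 68.8% and the tamoxifen libraries 65.2% and 66.8%. In the Hoxd window the values were 56.5% and 57.8% without and 53.8% and 52.5% with tamoxifen. In both windows the groups did not overlap, with differences of -2.47 and -4.01 points (exact permutation p = 0.333 each). In the Hoxb window untreated libraries covered 63.0% and 65.6% and tamoxifen libraries 57.2% and 63.5%, and the Hoxc values were 71.0% and 68.9% against 69.0% and 67.9%. The groups overlapped in both, with differences of -3.98 and -1.47 points (exact permutation p = 0.667 each). Adjusted over the 4 windows, each permutation p was 0.667. How often groups were apart in other regions of the series was not counted, so separation is not read as particular to Hox.

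Single libraries set much of the size of these differences. In Hoxb the difference was -0.797 without tamoxifen replicate 1, -7.16 without tamoxifen replicate 2 and -2.64 without untreated replicate 2. In Hoxc it was -0.404 without untreated replicate 1, -2.53 without untreated replicate 2 and -0.928 without tamoxifen replicate 2. In Hoxa it was -1.64 without tamoxifen replicate 1. Counting only whole peaks inside the window brought the Hoxc difference to -0.162, because the peak of untreated replicate 1 that crosses the window end then drops out, and with gaps under 2 kb joined it was 0.376. The 4 clusters share their libraries and are no replicates of each other.

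**Figure D2:**
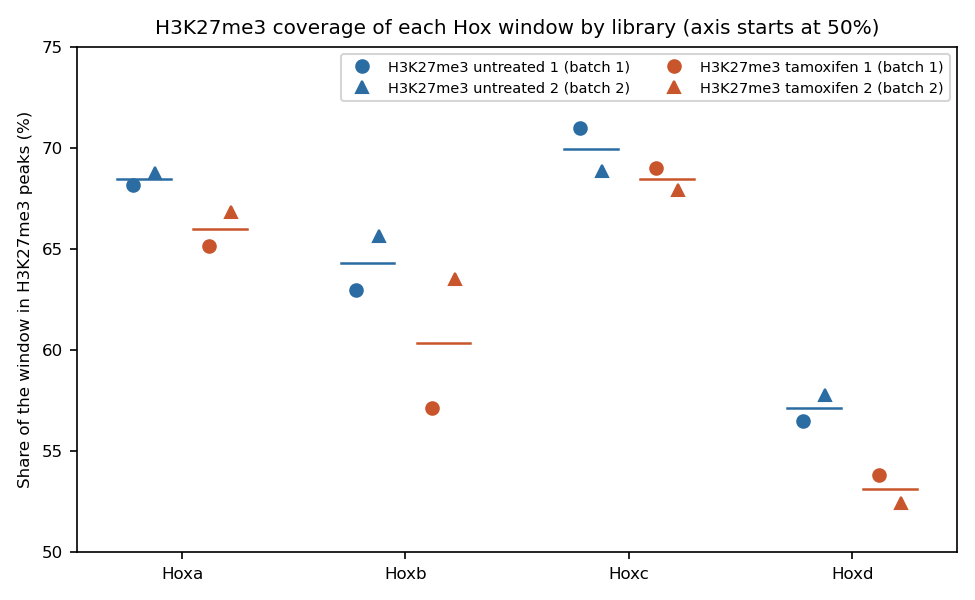
Share of each window in H3K27me3 peaks, in percent on an axis that starts at 50%, for each library (circles, first batch; triangles, second batch) with the group mean as a line. Tamoxifen libraries lie below untreated libraries of the same batch in all 4 windows, with differences of -5.82 to -0.941 percentage points.

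The windows held more H3K27me3 peaks with tamoxifen, as did the lists as a whole. They held 25 and 50 H3K27me3 peaks in untreated cells and 61 and 64 with tamoxifen, a difference of group means of 25 peaks (exact permutation p = 0.333). Untreated replicate 1 stood apart at 25 peaks, and without it the difference was 12.5, whereas without untreated replicate 2 it was 37.5. Within the batches the differences were 36 and 14. Peak number in the windows with tamoxifen was 2.44 times the untreated number in the first batch and 1.28 times in the second. Over the whole lists it went from 7041 to 15116, or 2.15 times, and from 17094 to 22265, or 1.30 times, so the windows were near the series and the rise is no result particular to the Hox clusters. Not every piece lay in a domain, since the count takes in the isolated small peaks, and the main Hoxb region had 6 peaks in both libraries of the second batch. Peaks under 1 kb numbered 1 and 18 untreated and 20 and 26 with tamoxifen, and peaks of 20 kb or more 8 and 7 against 7 and 7. The rise thus lay in peaks under 20 kb, both those under 1 kb and wider ones. Gaps of 1 kb or more numbered 14 and 34 against 24 and 45, with groups that overlap. By window these were 5 and 7 against 8 and 8 in Hoxa, 2 and 19 against 6 and 18 in Hoxb, 3 and 6 against 6 and 10 in Hoxc and 4 and 2 against 4 and 9 in Hoxd. With gaps under 1 kb joined the difference was 10.5 (exact permutation p = 0.667), and with gaps under 2 kb joined 5.5. These 4 libraries also differ in their lists as a whole, where peaks under 1 kb made up 14.3% of untreated replicate 1 and 59.1% to 63.3% of the other 3, and the part of this in the Hox counts was not tested.

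Peaks numbered 6 and 10 in the Hoxa window without and 15 and 10 with tamoxifen, and 5 and 24 against 22 and 25 in Hoxb. In Hoxc they numbered 6 and 9 against 11 and 14, and in Hoxd 8 and 7 against 13 and 15. Groups overlapped in Hoxa and Hoxb and were apart in Hoxc and Hoxd (exact permutation p = 0.667, 0.667, 0.333 and 0.333, and 0.667 for each when adjusted over the 4 windows). The share of other regions with peak numbers apart between the groups was not counted. Within the second batch the Hoxa number did not differ and the Hoxb number differed by 1. Without untreated replicate 1 the Hoxb difference turned from 9 to -0.5, and the Hoxa difference of 4.5 was 2.5. Hoxa gave 2 without tamoxifen replicate 1 and 7 without tamoxifen replicate 2, and Hoxb 18.5 without untreated replicate 2. The Hoxd difference of 6.5 peaks was 3.5 with gaps under 1 kb joined and 0.5 under 2 kb, so the pieces of that domain lay close together.

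The widest peak of each window was shorter with tamoxifen. In Hoxb it measured 118572 and 97512 bp untreated and 92821 and 95167 bp with tamoxifen, and in Hoxd 37666 and 68736 bp against 27266 and 32029 bp. Together with Hoxc these windows had groups that did not overlap (exact permutation p = 0.333, adjusted over the 4 windows 0.444). In Hoxa the values were 67910 and 91929 bp against 58868 and 68295 bp, which overlap (exact permutation p = 0.667). Despite this the widest peaks of Hoxc, Hoxb and Hoxa had ranks 1, 2 and 3 by width in all 4 H3K27me3 lists, and that of Hoxd had ranks 4 to 8. The order of the 3 widest Hox peaks was thus the same with and without tamoxifen. The widest peak of other wide regions was not compared between states, so the shorter widest peaks are not read as particular to Hox. In the 105 other shared regions of 20 kb or wider, pieces per 100 kb also rose with tamoxifen. They went from 7.03 to 14.8 in the first batch and from 8.79 to 10.2 in the second.

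**Figure D3:**
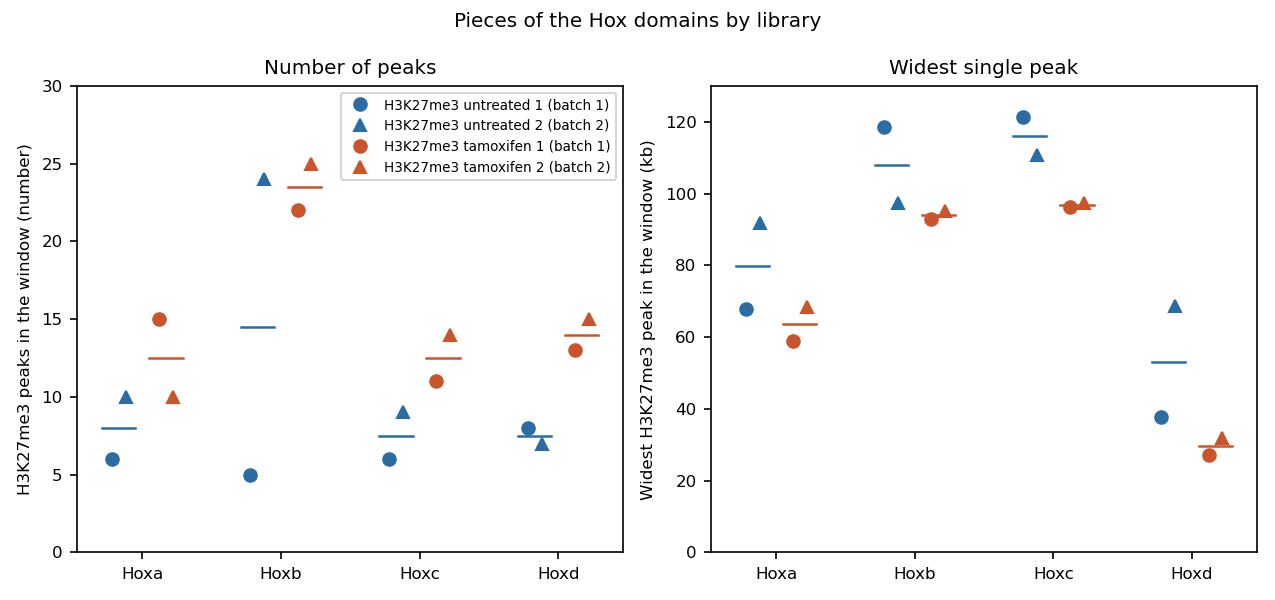
Number of H3K27me3 peaks (left) and width of the widest peak in kb (right) in each window for every library, with the group mean as a line. Untreated replicate 1 has the fewest peaks in the Hoxa, Hoxb and Hoxc windows, at 6, 5 and 6, and the widest peak is shorter with tamoxifen within both batches in all 4 windows.

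Bases that changed with the treatment in both batches were few. In the windows 9314 bp were held by both untreated and no tamoxifen library, which is 1.44% of the bases with H3K27me3 in any list, against 2.2% over the series. In the reverse direction 1051 bp were held by both tamoxifen and no untreated library, which is 0.163%, against 1.62% over the series. Both shares were below those of the series, the second by more in proportion, with no test of either. They are shares of bases in any list, of which 80.3% in the windows and 27.7% over the series lay in all 4. Over the series the 2 numbers were 1067966 and 785459 bp, so untreated-only bases outweighed tamoxifen-only ones less than in the windows. Within single batches 42353 and 45130 bp of the windows were in the untreated list and not in the tamoxifen list, and 9713 and 22136 bp the other way round. Leaving out any 1 of the 4 libraries leaves 1 list in its group and raised the first number to 18276 to 31198 bp and the second to 3188 to 14433 bp. The 9314 bp fell to 5217 bp with gaps under 1 kb joined.

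The untreated-only bases lay in 25 stretches, of which 9 were at least 500 bp long. The longest lay near both ends of the Hoxd domain, at 937 bp from 74488790 to 74489726 and 929 bp from 74604342 to 74605270. The third, of 904 bp, was at the start of the main Hoxb region, from 96120631 to 96121534. Hoxb held 4 of the 9, Hoxa and Hoxd 2 each and Hoxc 1. The 5 tamoxifen-only stretches were all shorter than 500 bp, the longest of 442 bp in Hoxc, and Hoxd had none.

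Borders of the domains differed between libraries by about 1 kb, and how often they lay inward with tamoxifen was near the series as a whole. The 16 shared regions have 32 borders, and the first or last peak base of the 4 libraries spread over 1114 bp at the median, from 52 bp at the start of the third Hoxa region to 5575 bp at the start of the Hoxb13-end region. Over all regions of the series held by all 4 libraries the median was 1011 bp. The tamoxifen mean lay inward of the untreated mean at 21 of the 32 borders, where 59% of the borders of all such regions did. Both tamoxifen libraries lay inside both untreated ones at 8 of the 32, against 19.4%, and outside at 2, against 8.64%. Tamoxifen borders lay inward at 20 of the 32 in the first batch, against 66.8%, and at 17 in the second, against 48.6%. They lay inward in both batches at 10, against 33.1%, and outward in both at 5, against 17.5%. At the end of the main Hoxa region the untreated libraries stopped at 52228602 and 52227909 and the tamoxifen libraries at 52227404 and 52227396, a mean shift of -856 bp. The largest mean shift, of -2006 bp, was at the Hoxd1 end of the Hoxd domain, where the values were 74607186 and 74605270 untreated and 74604341 and 74604104 with tamoxifen.

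**Figure D4:**
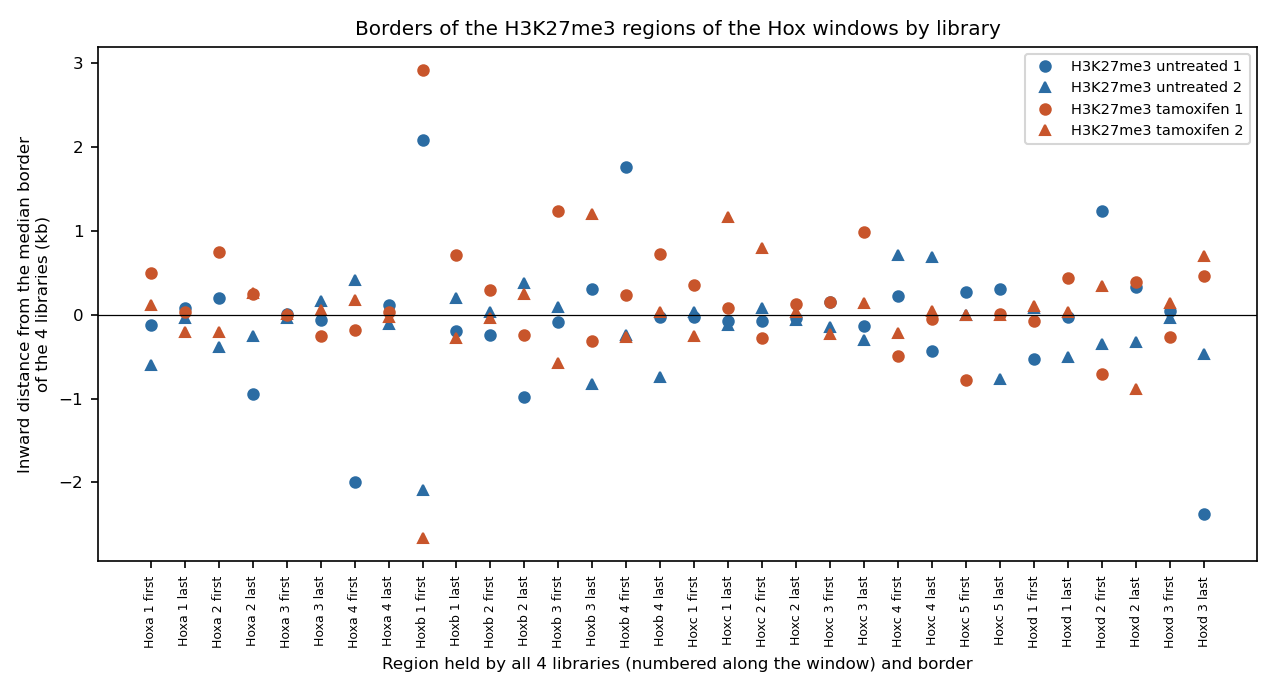
Distance in kb of each library's border from the median border of the 4 libraries, positive towards the inside of the region, for the first and last border of the 16 regions held by all 4 libraries. Points of both states lie on both sides of 0, and the widest spread, 5575 bp, is at the first border of the first Hoxb region.

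The outermost peaks of a window differed more between libraries and were often single small peaks. In the Hoxb window the first peak began at 96029858 and 96030685 in the first batch and at 96008576 and 96007392 in the second, so the batches stood apart and the states did not. In the Hoxd window the last peak ended between 74604341 and 74607186 in 3 libraries and at 74617769 in tamoxifen replicate 2, through a peak of 429 bp. Its first peak began at 74485081 and 74484147 untreated and at 74485534 and 74475445 with tamoxifen, the last through a peak of 185 bp. In the Hoxb window the last peak ended at 96272015 and 96279609 untreated and at 96278538 and 96280130 with tamoxifen. The first Hoxc peak began at 102735762 and 102735822 untreated and at 102725837 and 102733890 with tamoxifen, the latter through peaks of 181 and 196 bp. The last Hoxc peak that reaches into the window ended at 102920995 and 102919343 against 102919028 and 102918927. In the Hoxa window all 4 libraries began within 1102 bp, from 52099006 to 52100108, and ended within 1556 bp of each other, from 52274781 to 52276337. Of the 8 differences between states in an outer border, 6 changed sign under at least 1 alternative, so no direction is read from them.

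Hox domains were set beside the other wide H3K27me3 regions to see where they differ. Of the 112 regions of 20 kb or wider held by all 4 libraries, 7 lay in the windows. Coverage was lower with tamoxifen in both batches in 6 of these 7, where 72.3% of all 112 were, and the exception was the 21533 bp island of Hoxa at 0.729 points in the second batch. The number of pieces was higher with tamoxifen in both batches in 5 of 7, where 42.9% of the 112 were. The median difference in coverage was -4.89 points over the 7 Hox regions and -7.89 over the 105 others, with ranges of -9.17 to -1.24 and -37.5 to 8.65. The Hox regions were wider, at a median of 69349 bp against 24658 bp, and had fewer pieces per 100 kb in every library, at 2.72 and 3.44 untreated and 7.24 and 5.61 with tamoxifen, against 7.03, 8.79, 14.8 and 10.2 in the others. With 7 regions that share libraries no difference between the sets was tested.

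**Figure D5:**
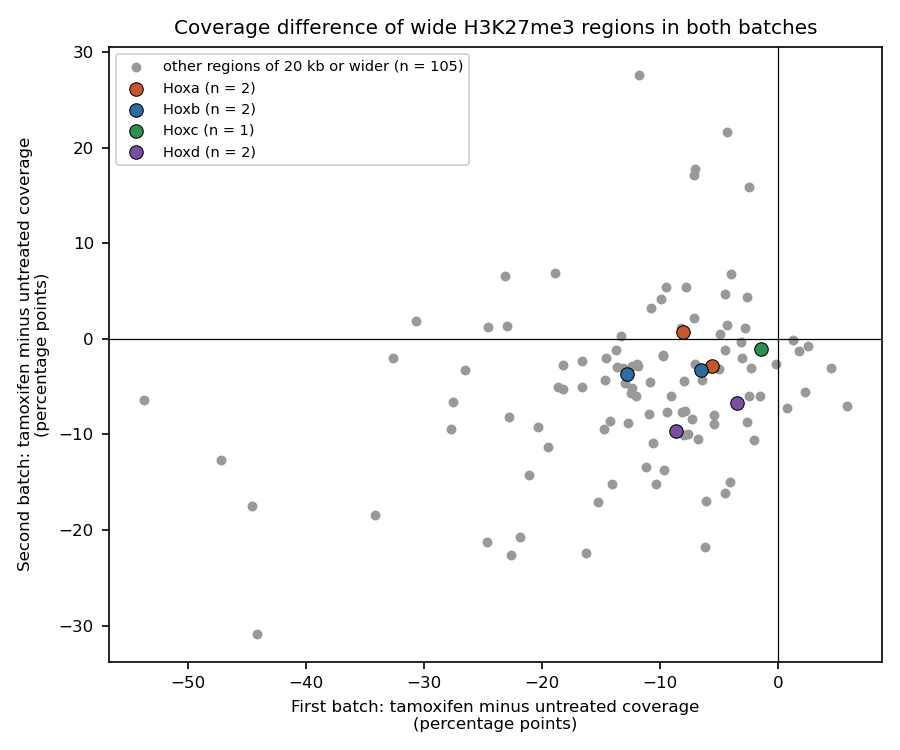
Difference in coverage between tamoxifen and untreated libraries, in percentage points, in the first batch (x axis) and the second (y axis) for each region of 20 kb or wider. Grey points are the 105 other regions and coloured points the 7 Hox regions, of which 6 lie below 0 on both axes.

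H3K9me3, the mark that Setdb1 deposits, was sparse in the Hox windows of untreated cells. Its 4 lists held 2, 5, 10 and 4 peaks there, covering 0.350%, 0.353%, 0.782% and 0.396% of the windows, or 0.470% ± 0.209 (SD, n = 4). The lists cover 1.36% to 2.07% of the chromosome length spanned. Compared with H3K27me3 the difference in untreated cells was -64.6 percentage points, with all H3K9me3 libraries below all H3K27me3 libraries (two-sided exact permutation p = 0.133, which is as low as 4 against 2 can reach). None of the 17309 bp of H3K9me3 peaks in the windows, summed over the 4 lists, lay in an H3K27me3 peak of any library. The share of H3K9me3 bases in H3K27me3 peaks over the whole series was not counted. The lack of overlap is therefore not read as particular to Hox. With windows widened by 50 kb the H3K9me3 share rose to 1.09%.

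The few H3K9me3 sites lay beside the H3K27me3 regions or, in Hoxb, in the bare intervals between them. Merged over the 4 lists there were 11 sites in the windows. Of these 2 were held by all 4 libraries, a share not counted over the series. One was in Hoxb, from 96072500 to 96073447 on chromosome 11, with peaks of 634, 471, 855 and 579 bp in replicates 1 to 4. It lay 1486 bp after the last H3K27me3 base of the Hoxb13-end region and 3881 bp before the next H3K27me3 peak of any library. A neighbouring site from 96089067 to 96089617 was held by 3 libraries. The other site held by all 4 lay at the end of the Hoxa window, on the Hoxa13 side and 20541 bp after the last H3K27me3 peak, from 52296879 to 52305543 on chromosome 6.

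Beside the windows the clusters differed in how near H3K9me3 came. Next to Hoxa, within 100 kb of the window, 12 merged sites were found. Of these 1 was in all 4 libraries, from 52337615 to 52340803, again with no share counted over the series. Another of these sites, 88301 bp from the window, shared 141 bp with 1 H3K27me3 list, through its peak in replicate 3. In replicates 2, 3 and 4 a peak ended 1099, 1607 and 2001 bp before the Hoxa window, whereas the nearest peak of replicate 1 on that side was 641280 bp away. Around Hoxc no library had a peak in the window or within 100 kb of it, and the nearest lay 132237 bp before it, in replicate 3. The Hoxd window held 2 sites of 2 libraries each, both before the domain, at 74448710 and 74469413, and the nearest H3K9me3 peak after the window was 223748 bp away. Hoxb had no site within 100 kb outside its window.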

How the data were processed

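Chromatin immunoprecipitation was followed by sequencing on an Illumina HiSeq, per the labels' protocols. The authors deposited 1 list of peak positions per library, with neither heights nor scores nor counts of reads. The depth and the strength of a peak are unknown. Per the submitters' processing notes, Bowtie 0.12.7 and MACS2 2.0.10 or 2.1.0 were used on mm9. Mode of calling, cutoff and control, each not given in the sources used here, can change gaps, and the shortest gap of any list was 585 bp in the first batch and 693 bp in the second.

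The windows and member genes were given, and they and the comparisons were chosen with earlier results of these data known. Coverage is the share of a window in peaks, clipped to the window. A piece is a peak that overlaps the window, and merged regions join touching or overlapping peaks of the 4 H3K27me3 lists. By the rule for what is named, items that could be named were the outer borders, the widest peak and gaps of 1 kb or more of each window, the 3 longest stretches of at least 500 bp held in 1 state, H3K9me3 peaks in a window and the nearest outside it, and promoters of the first and last gene of a cluster. Gaps of single libraries and some H3K9me3 peaks are given as counts, and regions shared by all libraries and stretches free of the mark, named besides, were chosen after their values were seen. Other regions of 20 kb or wider appear as counts and medians. Group means were compared by exact permutation tests with the Benjamini-Hochberg method over the 4 windows. Computation used Python 3.11.15, NumPy 2.4.6, SciPy 1.17.1 and Matplotlib 3.10.9, and the interval code was tested on simulated data. The 5 inputs were not analysed here. Other genes of the Polycomb pathway could not be placed without an mm9 annotation. Alternatives were peaks of at least 500 bp, gaps joined, windows widened by 50 kb, whole peaks only, each library left out, each batch alone and a replicate block.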

Additional observations from a re-analysis of the deposited data

Results flagged for a closer look

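H3K9me3 replicate 3 stood apart from the other 3 H3K9me3 libraries in the Hox windows, by a gap that took up most of the range of the 4. It covered 0.782% of the summed windows, and it held 5 peaks in the Hoxa window where each of the others held 1. Its list is also the longest of the 4, at 42725 peaks. The gap was held to the 95% critical value of Dixon's test, a level that by its definition marks about 1 in 20 groups by chance, and 10 groups were examined, of which 8 had any range.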

How the results depend on the processing

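The coverage difference over the 4 windows stayed negative and the difference in peak number positive under all 13 alternatives each, but no alternative with 2 libraries a group could reach 0.05. With the replicate block, which pairs libraries of the same number and so of the same batch, the differences of -3.02 points and 25 peaks are unchanged by construction, with exact sign-flip p = 0.5, the smallest possible. The first libraries carry no number in their labels, so the labels pair no libraries across groups.

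Untreated-only bases were 5217 with gaps under 1 kb joined and 2460 under 2 kb. They were 42353 in the first batch alone and 45130 in the second, and 18276 to 31198 when 1 library was left out. Tamoxifen-only bases were 447 with gaps under 2 kb joined, 2220 with widened windows, 9713 and 22136 in the batches and 3188 to 14433 when 1 library was left out. Fewer lists raise these counts by construction. H3K9me3 coverage was 1.09% with widened windows.

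The Hoxc coverage difference was 0.376 with gaps under 2 kb joined, and the Hoxb difference in peak number ranged from -0.5 to 18.5 when 1 library was left out. With peaks of at least 500 bp, the Hoxb first base, at -179 bp before, differed by 421 bp, and the other border differences that changed sign were -962 bp for the Hoxb last base, 47.5 bp for the Hoxc first base, 1013 bp for the Hoxd first base and -2006 bp for the Hoxd last base. A setting with the 7041 widest peaks of each H3K27me3 list was chosen after the data were seen. There the differences that changed sign were -3362 bp for the Hoxb last base and 1862 bp for the Hoxc first base. For the Hoxd first base and the Hoxd last base they were 239 bp and -2006 bp. The Hoxd last base differed by -2845 bp in the first batch and by 12499 bp in the second, and the Hoxc last base by -7048 bp with gaps under 2 kb joined. Over all 80 alternative values of the 8 outer borders, 18 had the other sign. The cause of these changes was not tested.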
